A study of Mus musculus with 2 samples.

Results

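Transcripts of lysosomal hydrolases, lysosomal membrane proteins and the vacuolar proton pump were compared between Mle29c and Mlesico cells. The set held 65 of the 18193 genes that the array annotation names singly. They were chosen by symbol: 45 listed genes, and 20 genes whose symbol starts with Atp6v, the prefix of the pump subunits. They were read by 144 probe sets, which are groups of short oligonucleotides on the array that together give 1 signal. Both groups, Mle29c and Mlesico, are named as mouse epithelial cell lines, were grown in DMEM with fetal bovine serum, and gave total RNA for 1 array each. The series as a whole is about miR-29c in fibrosis of the lung and in the renewal and death of epithelial cells. What distinguishes the lines, including the direction in which miR-29c differs between them, is not given in the labels, nor is it said whether either line is 1 clone.

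Lysosomes are acidic compartments that break down proteins, glycans and lipids. A proton pump, the V-ATPase, acidifies them. Its V1 sector in the cytosol hydrolyses ATP and its V0 sector in the membrane carries the protons. Most soluble hydrolases are brought there by mannose 6-phosphate receptors, and the transcription factor TFEB binds E-box motifs in the promoters of many of these genes. In lung epithelium, the lamellar bodies in which alveolar type II cells store surfactant are related to lysosomes and hold some of the same enzymes.

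A gene's or probe set's ratio below is a difference of log signals, Mle29c minus Mlesico, taken as log2, so 1 stands for 2-fold. Values given for each line separately are its centred log signals. With 1 array per line there was no spread between replicates, no test was possible, and no difference below has a p-value. The deposited values of a probe set are centred on the midpoint between both arrays, so they mirror each other, and the level of a transcript was removed. What could be recovered is a level class, read from the rounding of the numbers. In the low class the weaker array lay below a log2 level of 4. In the middle class the weaker array lay below 8 (a signal of 256), and the high class is brighter. These classes were devised after the data had been seen. They are less sure for 65 of the measured member probe sets, where only the rounding step could be used and a probe set can be placed a class too high. Probe sets of the high and middle classes were called measured, and the value of a gene is the median over them. A probe set that is weak in only 1 line can thus fall in the low class and be left out. Of the 144 probe sets 129 were measured (89.6%, against 77.8% of all 34945 single-gene probe sets), which left 63 of the 65 genes with a value. For the other pair, the pump subunit genes Atp6v1b1 and Atp6v1c2, the only probe set was in the low class. The only measure of error is technical: where 1 gene had several measured probe sets, their ratios differed with a pooled SD of 0.62 (6886 genes). Among the 37 such member genes it was 0.50, and in 25 of them (67.6%) all measured probe sets lay on 1 side of 0, against 56.3% of the 6886.

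To show what the promoter comparison at the end of the results rests on, 6 promoter windows of 5 genes are printed here, and they are taken up with the genes. Each runs from 250 bases before to 50 bases after a start that RefSeq gives the gene. Cln3 has 2 such windows. The first one printed lies inside the gene as the gene table gives it. The second, at its outer start, does not hold CACGTG, the form of E-box searched here. Tpp1 had the lowest ratio of the set, Ctsf and Cln3 were among the highest, and Lamp1 and Gla, both within 2-fold, hold several copies of an E-box. Capitals mark the letters CACGTG, and the longer TCACGTGA where it occurs.
Tpp1 promoter, GRCm38.p6 chr7:105752186-105752485, - strand: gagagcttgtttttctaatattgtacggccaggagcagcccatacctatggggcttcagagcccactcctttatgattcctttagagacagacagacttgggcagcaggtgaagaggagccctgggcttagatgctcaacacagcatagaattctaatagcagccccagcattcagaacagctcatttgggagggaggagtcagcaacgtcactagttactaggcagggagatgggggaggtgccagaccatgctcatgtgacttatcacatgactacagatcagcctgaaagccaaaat
Ctsf promoter, GRCm38.p6 chr19:4854915-4855214, + strand: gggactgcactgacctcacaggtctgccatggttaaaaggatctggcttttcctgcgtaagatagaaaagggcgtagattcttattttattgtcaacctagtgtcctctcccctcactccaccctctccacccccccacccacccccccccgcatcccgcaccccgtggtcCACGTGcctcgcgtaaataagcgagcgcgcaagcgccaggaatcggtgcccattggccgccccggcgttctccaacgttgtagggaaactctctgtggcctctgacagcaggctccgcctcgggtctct
Cln3 promoter, GRCm38.p6 chr7:126583187-126583486, - strand: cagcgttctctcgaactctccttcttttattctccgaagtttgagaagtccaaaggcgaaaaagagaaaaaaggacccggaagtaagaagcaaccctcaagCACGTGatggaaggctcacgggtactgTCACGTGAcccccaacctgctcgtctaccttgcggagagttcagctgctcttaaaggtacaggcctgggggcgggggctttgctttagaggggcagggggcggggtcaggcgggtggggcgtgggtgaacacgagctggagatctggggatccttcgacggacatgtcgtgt
Cln3 promoter, GRCm38.p6 chr7:126585768-126586067, - strand: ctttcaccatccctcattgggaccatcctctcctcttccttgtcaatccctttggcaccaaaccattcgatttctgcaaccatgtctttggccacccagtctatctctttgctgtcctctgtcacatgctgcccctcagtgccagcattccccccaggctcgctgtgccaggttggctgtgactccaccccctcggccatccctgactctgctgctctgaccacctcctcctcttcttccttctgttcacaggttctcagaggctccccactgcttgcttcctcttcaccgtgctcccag
Lamp1 promoter, GRCm38.p6 chr8:13158911-13159210, + strand: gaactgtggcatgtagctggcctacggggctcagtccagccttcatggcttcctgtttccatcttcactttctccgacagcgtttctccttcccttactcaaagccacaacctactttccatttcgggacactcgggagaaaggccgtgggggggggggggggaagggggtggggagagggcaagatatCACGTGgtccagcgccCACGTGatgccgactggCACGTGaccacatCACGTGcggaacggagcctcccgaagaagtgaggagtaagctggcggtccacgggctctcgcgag
Gla promoter, GRCm38.p6 chrX:134600956-134601255, - strand: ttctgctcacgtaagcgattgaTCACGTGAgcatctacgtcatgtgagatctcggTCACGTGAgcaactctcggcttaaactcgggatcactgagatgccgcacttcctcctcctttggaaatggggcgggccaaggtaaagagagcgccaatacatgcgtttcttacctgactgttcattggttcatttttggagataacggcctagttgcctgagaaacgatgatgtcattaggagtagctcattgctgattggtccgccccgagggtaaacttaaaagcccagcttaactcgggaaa
The mature microRNA that the series title names is also given from RefSeq (GRCm38.p6, chr1:195037600-195037621, + strand), with its seed, bases 2 to 8, in capitals.
mmu-miR-29c-3p: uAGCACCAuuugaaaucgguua

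Of the 63 measured members, 6 were at least 2-fold higher in Mle29c (Ctsf, Ctsc, Ctss, Cln3, Atp6v0e2 and Atp6v1b2) and 2 at least 2-fold lower (Tpp1 and Ctsk), while 55 lay within 2-fold. Over all 14808 measured genes 8.42% were at least 2-fold higher and 7.20% at least 2-fold lower. The members' shares were 9.52% and 3.17%, and for both directions together 8 of 63 stand beside 15.6% of all measured genes. The share that was higher was near that of the whole array, and the share that was lower rests on 2 genes. By class, 5 of the 8 genes past 2-fold were proteases, 2 were pump subunits, 1 encodes a membrane protein, and none was a glycan or lipid hydrolase. Just past 2-fold were Cln3 at 1.07 and Ctss at 1.18, and just under it was Arsa at 0.96. More members lay above 0 than below it, 43 of 63 (68.3%), against 50.4% of all measured genes, and the median of the members was 0.21, against 0.01 over all measured genes. The mean of the members was 0.09, and their median was 0.14 with each gene set against the median of its chromosome.

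**Figure D1:**
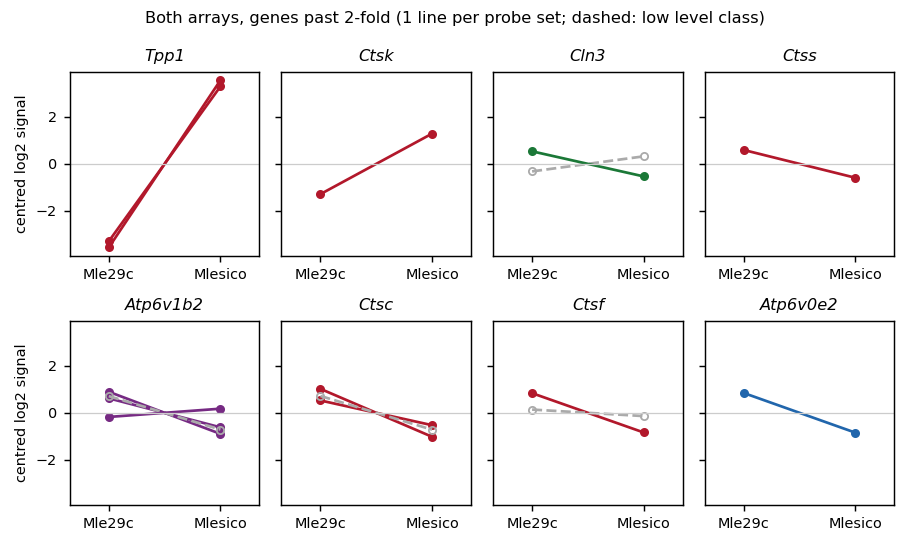
Centred log2 signal of the 8 member genes past 2-fold, with Mle29c on the left and Mlesico on the right of each panel and 1 line per probe set (dashed and open where the level class is low). Tpp1 has the steepest lines, at -3.56 and -3.30 in Mle29c and 3.56 and 3.30 in Mlesico, and Atp6v1b2 and Cln3 each have 1 probe set that runs against the gene value.

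The proteases had the widest spread of the classes, with an SD between genes of 2.24, or 1.15 without Tpp1. The SD was 0.45 to 0.60 in the glycan, lipid, membrane, V0 and V1 classes, and 0.97 over all measured genes. Tpp1, which encodes tripeptidyl peptidase 1, an enzyme that removes tripeptides from the ends of proteins and whose loss in humans causes a neuronal ceroid lipofuscinosis, lies at chr7:105744811-105752282 (GRCm38.p6, gene table of RefSeq). Its 2 probe sets stood at -3.56 and -3.30 in Mle29c cells, against 3.56 and 3.30 in Mlesico cells, on the centred scale. Both probe sets were thus far lower in Mle29c, with ratios of -7.12 and -6.59. The gene value of -6.86 is a 116-fold difference, the 8th lowest of the 14808 measured genes. In RNA from whole cultures, fewer cells with a transcript and less of it per cell cannot be told apart. The rounding of both probe sets puts their mean level at 4 or more and the weaker array below 8. The Mlesico signal was therefore at least 189 and 157 in the 2 probe sets, and the Mle29c signal below 256 in both. How far below was not measured, so the size of the fold is less firm than its direction. The 20 measured genes nearest to Tpp1 on chromosome 7, 10 on each side, had a median of 0.20 and ranged from -1.20 to 0.65, with 1 of them past 2-fold.

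Ctsk, which encodes the collagen-degrading cathepsin K of osteoclasts, was the only other member at least 2-fold lower. It lies at chr3:95499210-95509387. Its single probe set stood at -1.29 in Mle29c and 1.29 in Mlesico, a ratio of -2.58 or 5.97-fold. That probe set was in the middle class.

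On the other side were 3 cysteine cathepsins. Ctsf, encoding cathepsin F (chr19:4855165-4860918), stood at 0.84 in Mle29c and -0.84 in Mlesico in its 1 measured probe set, a ratio of 1.67 or 3.19-fold. A low-class probe set of Ctsf was at 0.28, and with both kept the gene was at 0.98, within 2-fold. The ID of the measured probe set ends in _x_at, which marks probes that may also bind other sequences. Ctsf therefore has no value when such probe sets are left out. Ctsc (chr7:88278024-88315861) encodes cathepsin C, a dipeptidyl peptidase that activates the serine proteases of immune cell granules. Its measured probe sets stood at 0.53 and 1.02 in Mle29c, against -0.53 and -1.02 in Mlesico. Both lay above 2-fold, at 1.05 and 2.04, for a gene value of 1.55 or 2.92-fold, and its low-class probe set was at 1.44. For Ctsc the direction was therefore shared by all 3 probe sets. Ctss (chr3:95526786-95556405) encodes cathepsin S, which trims the invariant chain of MHC class II. It stood at 0.59 in Mle29c and -0.59 in Mlesico in 1 probe set, a ratio of 1.18 or 2.27-fold. Ctss and Ctsk lie close together on chromosome 3 and had ratios of opposite sign.

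The other 8 proteases lay within 2-fold. Ctsb, a widely expressed cysteine cathepsin, had the highest value of these at 0.68, with 4 of 5 probe sets between 0.10 and 0.77 and 1 at -0.22. Ctsz, a carboxypeptidase, stood at 0.46 in 3 probe sets from 0.39 to 0.67. Ctsd, the main aspartic protease of lysosomes, stood at 0.10, the related Ctse at 0.37, and Lgmn, an asparaginyl endopeptidase that matures other cathepsins, at 0.19. Below 0 were Ctsl at -0.60, Ctsa at -0.58 and Ctso at -0.37. Ctsl, encoding cathepsin L, had a low-class probe set at -2.16, and with it kept the gene stood at -1.38. Ctsa encodes a carboxypeptidase that also protects the sialidase and the beta-galactosidase in a complex. Its probe sets differed, at -1.05 and -0.11. The median of the 13 proteases was 0.19, and the mean, at -0.37, had the opposite sign. Without Tpp1 the median was 0.28 and the mean 0.17.

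**Figure D2:**
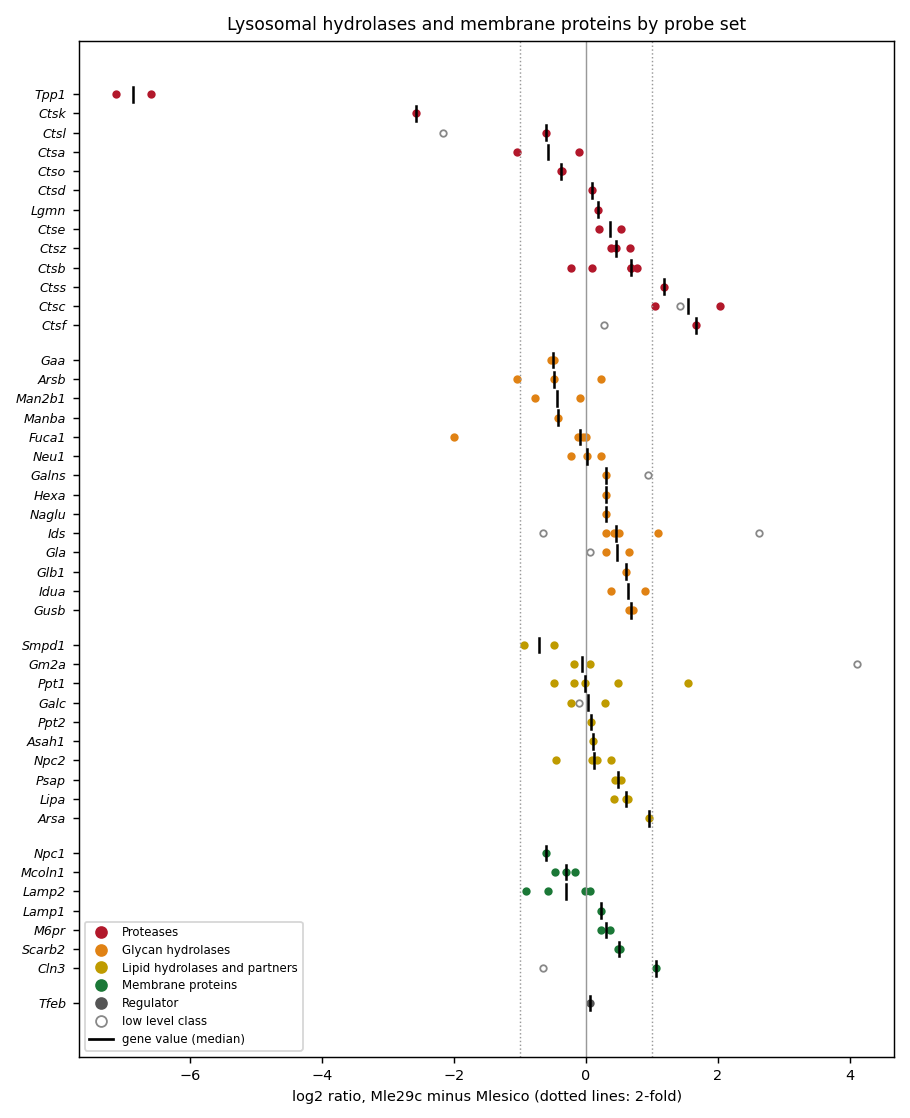
Log2 ratio (Mle29c minus Mlesico, horizontal axis) of each probe set of the 45 listed genes, sorted by gene value within each class. Filled points are measured probe sets, open points are in the low class, bars are gene values, and dotted lines mark 2-fold. Bars of proteases run from -6.86 to 1.67, while those of glycan hydrolases stay between -0.50 and 0.68.

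Glycan hydrolases, which take apart glycogen, glycoproteins and glycosaminoglycans, all lay within 2-fold. Of the 14 genes 9 were above 0, with a median of 0.31. Gusb, encoding beta-glucuronidase, was the highest at 0.68. It stood at 0.34 in Mle29c and -0.34 in Mlesico as the median of 2 probe sets with ratios of 0.66 and 0.71. Idua, Glb1, Gla and Ids followed at 0.64, 0.61, 0.48 and 0.46. Idua and Ids encode the iduronidase and the iduronate sulfatase of heparan and dermatan sulfate breakdown, Glb1 encodes beta-galactosidase and Gla alpha-galactosidase. The lowest was Gaa, encoding the acid alpha-glucosidase that digests glycogen. Its probe sets were at -0.52 and -0.49, for a gene value of -0.50.

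Arsb, a sulfatase of dermatan sulfate, and the mannosidase genes Man2b1 and Manba stood at -0.48, -0.43 and -0.42. Arsb is not settled, since its 3 probe sets ranged from -1.04 to 0.23. Fuca1, encoding alpha-fucosidase, stood at -0.08, with 3 of 4 probe sets between -0.12 and 0.01. The remaining probe set was far from these, at -1.001 in Mle29c and 1.001 in Mlesico on the centred scale, and with classes read from the sum alone the gene stood at -1.06. Neu1, encoding the sialidase that works in the complex with Ctsa and Glb1, stood at 0.01. The 3 genes of that complex thus had ratios of different sign or near 0, at -0.58 for Ctsa, 0.01 for Neu1 and 0.61 for Glb1. Galns, Hexa and Naglu, which encode a keratan sulfate sulfatase, a subunit of beta-hexosaminidase and a heparan sulfate glucosaminidase, lay between 0.30 and 0.31.

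Enzymes and binding proteins of lipid breakdown also all lay within 2-fold, with 7 of 10 above 0 and a median of 0.10. Arsa, which encodes the sulfatase of sulfatide, was just under 2-fold. It stood at 0.48 in Mle29c and -0.48 in Mlesico, a ratio of 0.96 from 1 probe set. Lipa, encoding acid lipase, stood at 0.61 with 3 probe sets from 0.43 to 0.64, and Psap, the precursor of the saposins, at 0.49 with probe sets at 0.44 and 0.53. At the other end Smpd1, encoding acid sphingomyelinase, stood at -0.71 with probe sets at -0.94 and -0.49. Asah1, Npc2, Ppt2, Galc, Ppt1 and Gm2a lay between -0.05 and 0.13. They encode acid ceramidase, a cholesterol-binding protein, a pair of thioesterases, galactosylceramidase and the GM2 activator. Ppt1 had probe sets from -0.48 to 1.55, so its value of -0.01 is the median of unlike probe sets.

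The membrane proteins and the sorting receptor differed among themselves. Cln3 (chr7:126571207-126585817) encodes a lysosomal membrane protein that is lost in human juvenile Batten disease. It stood at 0.53 in Mle29c and -0.53 in Mlesico in its measured probe set, a ratio of 1.07 or 2.10-fold. Its other probe set, in the low class, ran the opposite way at -0.64, and with both kept the gene stood at 0.21. Scarb2, encoding the carrier of glucocerebrosidase, was at 0.50 in 2 probe sets, M6pr, encoding the cation-dependent mannose 6-phosphate receptor, at 0.30, and Lamp1, an abundant glycoprotein of the lysosomal membrane, at 0.23. Lamp2, its relative, stood at -0.30, with 2 of its 4 probe sets near 0 and the others at -0.58 and -0.91. Mcoln1, encoding the calcium channel mucolipin 1, stood at -0.30 in 3 probe sets from -0.47 to -0.17, and Npc1, which exports cholesterol, at -0.61 from 1 probe set. The median of the 7 genes was 0.23. It was -0.46 over the 5 genes left when probe sets not specific to 1 transcript (IDs ending in _a_at, _s_at or _x_at) were dropped. With each gene set against the median of its chromosome it was -0.02. Tfeb itself stood at 0.03 in Mle29c and -0.03 in Mlesico, a ratio of 0.06 from 1 probe set.

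Most proton pump subunits lay a little above 0. Of 18 measured subunit genes 14 were above 0 and none was 2-fold lower, with a median of 0.30, against 29 of 45 above 0 and a median of 0.13 for the remaining members. The V0 genes had a median of 0.44 (7 of 8 above 0) and the V1 genes of 0.23 (7 of 10 above 0). With the high level class alone the order was the other way, at 0.19 over 6 V0 genes and 0.40 over 8 V1 genes, so no order of the sectors is read from these values. For the whole pump the median was 0.53 over 15 genes when classes were read from the sum alone. It was 0.23 over 18 genes with each gene set against the median of its chromosome.

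**Figure D3:**
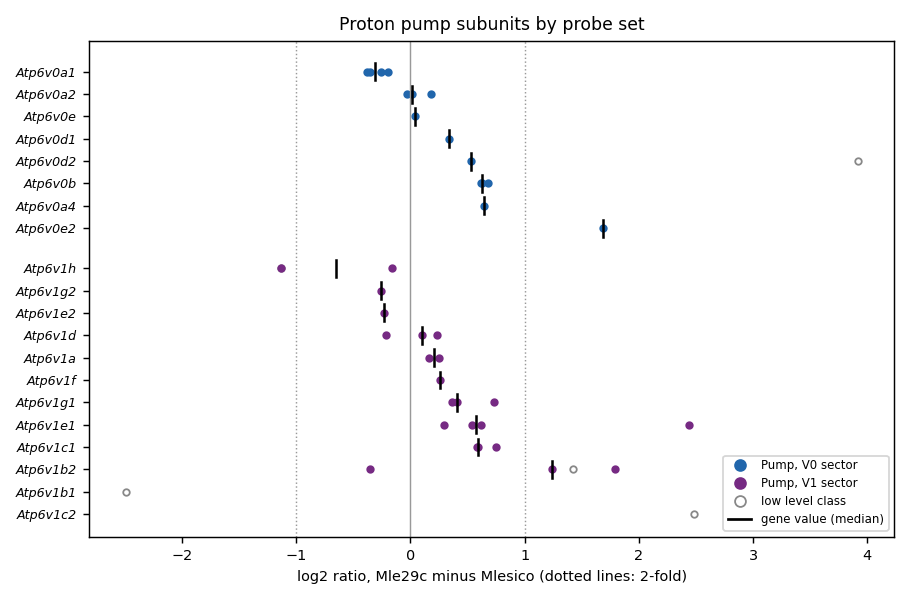
Log2 ratio (Mle29c minus Mlesico, horizontal axis) of each probe set of the 20 pump subunit genes, V0 above V1, drawn as in the plot of the listed genes. Atp6v0e2 at 1.69 and Atp6v1b2 at 1.24 are past 2-fold, while Atp6v1b1 and Atp6v1c2 have no gene value.

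In the V0 sector Atp6v0e2 (chr6:48537569-48541801), encoding an isoform of the small e subunit, had the highest ratio. It stood at 0.84 in Mle29c and -0.84 in Mlesico, a ratio of 1.69 or 3.23-fold from 1 probe set. The signal of that probe set was at least 460 in Mle29c, by the rounding of its values. Its partner isoform Atp6v0e was at 0.04. Of the genes for the large a subunit, which anchors the pump and sets where it goes, Atp6v0a4 stood at 0.65, Atp6v0a2 at 0.02 and Atp6v0a1 at -0.31. All 4 probe sets of Atp6v0a1 lay between -0.38 and -0.20. Tcirg1, which encodes another a subunit and was added after its value was seen, stood at -0.16. Atp6v0b, a proteolipid of the rotor, stood at 0.63 in 3 probe sets from 0.62 to 0.68. Atp6v0d1, the common form of the d subunit of the central stalk, stood at 0.34. Atp6v0d2, the form known from osteoclasts and kidney, stood at 0.53, with a low-class probe set at 3.92, and the gene stood at 2.22 with both kept.

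In the V1 sector Atp6v1b2 (chr8:69088736-69113718), encoding the widespread B subunit of the ATP-binding ring, was the only gene past 2-fold. Its 3 measured probe sets stood at 0.90, 0.62 and -0.18 in Mle29c, against -0.90, -0.62 and 0.18 in Mlesico, and the gene value was 1.24 or 2.36-fold. The probe set that ran the other way, at -0.35, was in the middle class, while those at 1.79 and 1.24 were in the high class. Without the probe set at 1.79, whose ID marks shared transcripts, the gene was at 0.44. Atp6v1a, which encodes the A subunit of the same ring, stood at 0.21, with probe sets at 0.16 and 0.25. The stalk genes Atp6v1c1, Atp6v1e1, Atp6v1g1, Atp6v1f and Atp6v1d stood at 0.59, 0.58, 0.41, 0.26 and 0.11. For Atp6v1e1, 3 of 4 probe sets lay between 0.29 and 0.62 and 1 at 2.44. Below 0 were Atp6v1h, encoding the regulatory H subunit, at -0.65 (probe sets at -1.13 and -0.16), Atp6v1g2 at -0.26 and Atp6v1e2 at -0.24, isoforms best known from brain and testis.

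**Figure D4:**
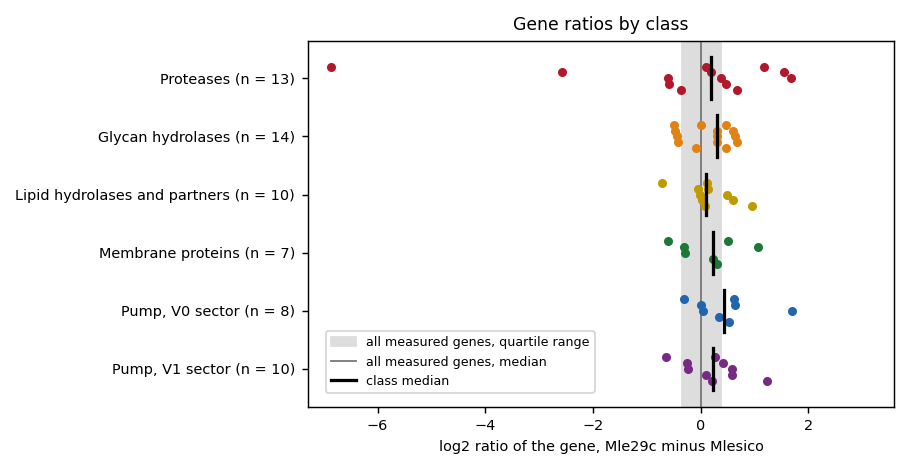
Log2 ratio (Mle29c minus Mlesico) of each measured member gene, 1 point per gene, by class. The black bar is the class median, and the grey band spans the quartiles of all measured genes, -0.35 to 0.38. Class medians run from 0.10 for lipid hydrolases and partners to 0.44 for the V0 sector, and 8 genes lie past 2-fold. Tfeb is not drawn.

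Whole chromosomes differed in their median ratio, and the members were set beside this. The median of all measured genes was 0.32 on chromosome 6, 0.36 on chromosome 15, 0.27 on chromosome 19 and -0.25 on chromosome 11. All 9 measured members on chromosomes 6, 15 and 19 were above 0, with a median of 0.61. Among them were Atp6v0e2 (chromosome 6), Ctsf (chromosome 19) and Arsa (chromosome 15). The share of all measured genes on these chromosomes that lay above 0 is not given here. Of the 4 members on chromosome 11 only Naglu was above 0, at 0.31. The 50 members on other chromosomes had a median of 0.11 with 33 above 0, and the 12 pump genes there a median of 0.16 with 9 above 0. Against the median of its own chromosome Atp6v0e2 stood at 1.37, Ctsf at 1.41 and Tpp1 at -6.88, and each gene past 2-fold stayed past it. The part of the chromosome medians in the members' values was not tested.

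**Figure D5:**
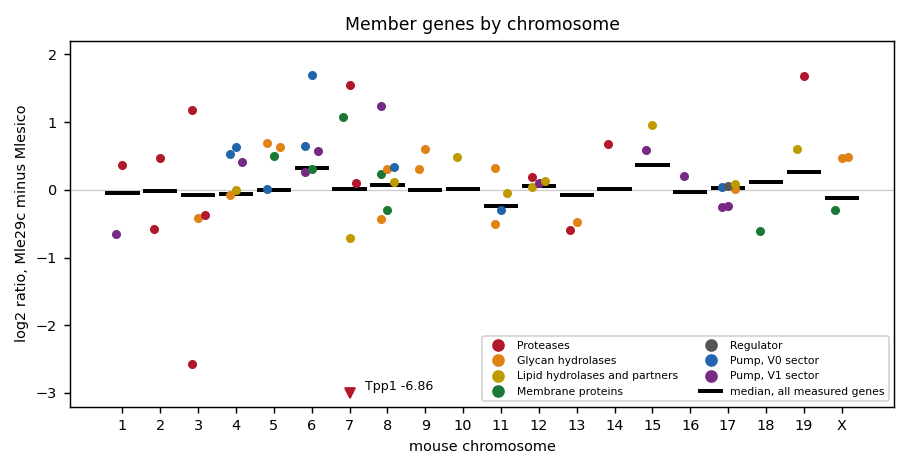
Log2 ratio (Mle29c minus Mlesico, vertical axis) of the measured member genes by mouse chromosome, coloured by class. Black bars are the medians of all measured genes of the chromosome. The triangle marks Tpp1, whose value of -6.86 lies below the axis. On chromosomes 6, 15 and 19, where the bars lie between 0.27 and 0.36, all members are above 0.

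RefSeq promoter windows (GRCm38.p6) were matched for 53 of the 65 genes. CACGTG, an E-box, was present in the windows of 17 genes (32.1%), against 8.09% of the 27025 genes with a window. The longer TCACGTGA, which holds CACGTG, was found in 8 genes (15.1%), against 1.12% of all. Each motif reads the same on both strands. By class CACGTG was found in 5 of 11 proteases, 4 of 13 glycan hydrolases, 1 of 9 lipid genes, 3 of 5 membrane genes and 4 of 14 pump genes. Members with CACGTG had a median ratio of 0.23 over 17 genes, from -0.60 to 1.67, and those without it 0.07 over 34 measured genes, from -6.86 to 1.69. With TCACGTGA the median was 0.15 over 8 genes, against 0.13 over 43 without it. In the windows printed above Lamp1 holds 4 copies of CACGTG and Gla 2 of TCACGTGA, and their ratios were 0.23 and 0.48. Of the genes at least 2-fold higher that have a window, 2 hold CACGTG, Ctsf and Cln3 (in the inner of its 2 windows), and 3 do not, Atp6v0e2, Ctsc and Ctss. Both genes at least 2-fold lower, Tpp1 and Ctsk, have windows without it.

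Other genes of the lysosome, from a list of 60 of which 52 were measured, had a median of 0.07, with 30 above 0. Of these 4 were at least 2-fold higher (7.69%) and 2 lower (3.85%), against 8.42% and 7.20% of all measured genes. Ctsh, a cathepsin that helps to process surfactant proteins, stood at 1.29 in 2 probe sets. Mitf, a relative of Tfeb, stood at 1.23, or at -0.08 where its low-class probe set was also counted. Also higher were Tpcn1, encoding a cation channel of endosomes and lysosomes, at 1.11 and Laptm5, a lysosomal protein of immune cells, at 1.02 with measured probe sets from -1.60 to 2.06, or 0.77 with its low-class probe set. Acp5, encoding tartrate-resistant acid phosphatase, stood at -3.33 from 1 probe set, and Cpq, a carboxypeptidase, at -1.22, or -0.63 with its low-class probe sets. Acp5 and Ctsk are both known as genes of osteoclasts, but Atp6v0d2, also known from osteoclasts, stood on the other side of 0 at 0.53. In the pathway that tags and sorts hydrolases, Gnptab, which encodes the catalytic subunits of the phosphotransferase that makes the mannose 6-phosphate tag, stood at 0.61. Gnptg, encoding the third subunit, stood at -0.59, and Igf2r, encoding the large receptor for the tag, at -0.67, beside 0.30 for M6pr. The accessory pump genes Atp6ap1 and Atp6ap2 stood at 0.36 and 0.32.

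Markers of the cell types were read the same way. Of 7 epithelial markers 6 were measured, with Krt8 and Krt19 in the high class and Cldn4 in the low class only. Their median ratio was -0.08 with Cdh1 at 1.46. Of 10 macrophage markers 7 were measured, none was past 2-fold, and their median was -0.08 with a range from -0.99 (Cd68) to 0.58 (Adgre1). Csf1r, Lyz2 and Cd14 had probe sets in the high class, while Ptprc, Mrc1 and Tyrobp had only low-class probe sets. Of 7 fibroblast markers 6 were measured with a median of 0.07, Col1a1, Pdgfra and Dcn had probe sets in the high class, and Pdgfrb only in the low class. Col1a1 stood at -3.41. Among the markers named in the high class, only Krt8 and Dcn had a probe set so classed from the sum of both values. The others were so classed from the rounding step, which can place a probe set a class too high. The part of other cells in the ratios of Ctsk and Acp5 was not tested.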

How the data were processed

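RNA of Mle29c and Mlesico cells was labelled with biotin and measured on 1 array each, per the labels' protocols. The authors deposited log values, read here as log2. The log base, the scaling and the version of MAS5, which the submitters' processing notes name, are not given in the sources used here. A natural log would make every fold larger than printed. The direction was taken from the column labels. For each probe set the values of both arrays add up to 0 within 1e-06, and each column's median is 0: the deposited values are centred per probe set.

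The log2 ratio is Mle29c minus Mlesico. Level classes, devised after the data had been seen, were read from that sum, which is a rounding error that grows with the level, or, where that sum was 0, from the rounding step of the values. For members 64 of the 129 measured probe sets were classed from the sum and 65 from the step, which is less certain. On the whole array 127 of 45101 probe sets had too few digits for a class. The reading of classes and the 2-fold calls were tested on simulated data. A set share of right classes was required only for those from the sum, not for those from the rounding step. The planted changes were larger than 2-fold and the noise was below the SD between probe sets, so calls near 2-fold were not tested.

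Gene names came from GEO's platform annotation of 2016, with symbols updated through a gene table of GRCm38.p6. Promoter and microRNA sequences are those of RefSeq (GRCm38.p6). Of 60 other lysosome genes 8 are not analysed here. Without replicates no test was run, and the number of arrays limits the precision. The members and lists were chosen with earlier results of these data known. The rule for named genes took every member past 2-fold, the highest and lowest of each class, a few preset members and other lysosome genes past 2-fold; further members were named to account for the set. Tcirg1 lies outside the rule and was chosen after its value was seen. A longer form of the E-box was also searched and is not reported here. Python 3.11.15, numpy 2.4.6, pandas 2.3.3 and matplotlib 3.10.9 were used. Alternatives covered the probe sets kept, the threshold, centring within chromosomes, means in place of medians and the log base.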

Additional observations from a re-analysis of the deposited data

How the results depend on the processing

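Of 49 class medians recomputed under the alternatives, 37 stayed within 1.5 times the reported value, 9 moved by more and 3 changed sign. The sign changed for the membrane class, at 0.23 as reported, to -0.46 with shared probe sets left out and -0.0249 with genes centred within chromosomes, and for the proteases, with a mean of -0.37. Means in place of medians also gave 0.14 for glycan hydrolases, 0.16 for lipid genes, 0.13 for membrane genes and 0.0880 for all members. Centring within chromosomes gave 0.14 for both the V1 sector and all members, the high class alone 0.19 for V0 and 0.40 for V1, and the class from the sum alone 0.53 for the pump. Counts of members at least 2-fold higher and lower (6 and 2 as reported) were 15 and 6 at a 1.5-fold threshold, and 0 were higher at 4-fold. With every probe set kept 5 were lower, and in the high class alone 0, since both Tpp1 and Ctsk are in the middle class. Of the other lysosome genes (4 higher and 2 lower as reported), 2 were higher and 1 lower with every probe set kept, and again 2 and 1 in the high class alone. With the class from the sum alone 2 were higher and 0 lower. With shared probe sets left out 1 was lower, at 1.5-fold 8 were higher and 5 lower, and at 4-fold 0 and 1. Another threshold or fewer probe sets change counts by construction; otherwise the cause was not tested. Of 340 recomputed values of single members, 8 moved by more than 0.62, the SD between probe sets of a gene. The other 332 moved by less, and none of the genes past 2-fold changed sign. For many of the 332 this was fixed in advance. Centring aside, a gene keeps its value where its probe sets stay the same, and the mean of 1 or 2 is their median. Genes left without a value were not counted. A natural log, an alternative added after seeing the data, gave 7 higher and 3 lower members. No paired analysis was possible because each line has 1 array. Ctsk, Ctss and Ctsf rest on 1 measured probe set each, with a class from the rounding step, which limits what can be said of them. For Ctsf that probe set is also one whose ID marks probes that may bind other sequences.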

Other observations

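Probe sets of members in the low class enter no gene value above, and several had wide ratios. The 15 of them include Gm2a at 4.11, Atp6v0d2 at 3.92, Ids at 2.63, Atp6v1c2 at 2.48, Atp6v1b1 at -2.49 and Ctsl at -2.16. Atp6v1b1 and Atp6v1c2 encode the B and C subunit isoforms of the pump in kidney and other acid-secreting epithelia. In all of them the weaker array lay below a log2 level of 4. For Gm2a the measured probe sets stood at -0.18 and 0.07, so the same gene gave unlike ratios in different probe sets.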
